A study of Caenorhabditis elegans with 2 samples.

Results

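The subject is the set of places on chromosome X of Caenorhabditis elegans where the transcription factor ELT-2 sat in a gene promoter at the start of larval life. Each of the 2 libraries came from whole hermaphrodite L1 larvae of strain OP56, which carries unc-119(ed3) and wgIs56, an insertion that makes ELT-2 fused to GFP and FLAG. The larvae were starved after bleaching to bring them to the same stage and taken 6 h after synchronization, and DNA bound to the tagged protein was precipitated with an antibody against GFP and sequenced (ChIP-seq). There was 1 group of 2 biological replicates, so no conditions are compared, and the labels do not say how the cultures were separated. The list that the authors' irreproducible discovery rate procedure (IDR) gave as optimal held 5443 peaks on the build ce11. IDR compares peak ranks between sets of peaks, and the sources used here do not say whether these sets were the 2 replicates. A peak was taken when its summit lay on X, from 1000 bp in front of to 200 bp behind a transcript start of some protein-coding gene. This gave 543 promoter peaks, 45.7% of the 1188 peaks on X (95% Wilson interval 42.9 to 48.5) and 9.98% of all 5443. They are compared with the 2533 promoter peaks of the 5 autosomes and with the 645 other peaks on X.

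ELT-2, a GATA-type zinc finger factor, is the main regulator of transcription in the worm intestine, a tube of few cells that digests, absorbs, stores fat and detoxifies. GATA factors recognize a short sequence with GATA at its core, and TGATAA is the form known for intestinal promoters of the worm. In hermaphrodites, which have a pair of X chromosomes, a dosage compensation complex lowers transcription from both. X is also known for holding few germ line genes and many genes of somatic tissues. The libraries came from whole larvae, so a peak does not say in which cell the factor was bound.

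The summit sequences of 6 of these promoters show what the results below count. Each line is 101 bases of the forward strand of the RefSeq WBcel235 sequence (the same assembly as ce11), centred on the summit, and TGATAA or its reverse complement TTATCA is in capitals. The first is the strongest promoter peak on X, in front of abhd-3.2, which codes for a protein with an alpha/beta hydrolase domain. The second, at the acyltransferase-like gene oac-14, is strong without the hexamer in this window. The next are those of the heme transporter gene hrg-1, the fatty acid binding protein gene lbp-3, the peptide transporter gene pept-1 and the GATA factor gene elt-3.
abhd-3.2, chrX:978405-978505: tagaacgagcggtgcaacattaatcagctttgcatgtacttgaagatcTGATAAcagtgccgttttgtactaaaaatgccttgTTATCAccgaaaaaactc
oac-14, chrX:10142154-10142254: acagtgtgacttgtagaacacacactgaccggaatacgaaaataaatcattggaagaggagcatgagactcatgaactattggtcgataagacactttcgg
hrg-1, chrX:4009047-4009147: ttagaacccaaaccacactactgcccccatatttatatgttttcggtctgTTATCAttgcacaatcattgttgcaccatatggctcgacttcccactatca
lbp-3, chrX:3256935-3257035: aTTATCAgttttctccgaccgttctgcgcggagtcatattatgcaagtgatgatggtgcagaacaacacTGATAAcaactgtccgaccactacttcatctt
pept-1, chrX:6456726-6456826: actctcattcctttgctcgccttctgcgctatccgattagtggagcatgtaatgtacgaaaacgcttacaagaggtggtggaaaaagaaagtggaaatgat
elt-3, chrX:13934376-13934476: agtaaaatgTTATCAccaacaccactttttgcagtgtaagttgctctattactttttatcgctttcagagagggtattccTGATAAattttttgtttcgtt

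Every one of the 543 promoter peaks overlapped a peak of both replicates in the authors' relaxed lists, which hold background on purpose. Because the thresholded list was itself made from both replicates, this overlap is no independent check. The signal of a peak is the authors' enrichment statistic and is comparable only within a list, where it serves to rank peaks. In the thresholded list the 543 signals ran from 143 to 1268 with a median of 246, against a median of 253 for autosomal promoter peaks. In replicate 1 the overlapping peaks had signals from 54.1 to 716 with a median of 142, and in replicate 2 from 35.1 to 572 with a median of 113. Across the 543 peaks the replicate signals had a Spearman rho of 0.850, a description of peaks that share the 2 libraries and were chosen with both. The replicate summits lay a median of 16 bp apart, and 448 pairs (82.5%) lay within 50 bp. A close neighbour limits this for 30 peaks, which share their replicate peak with another promoter peak on X and so carry the same replicate values.

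**Figure D1:**
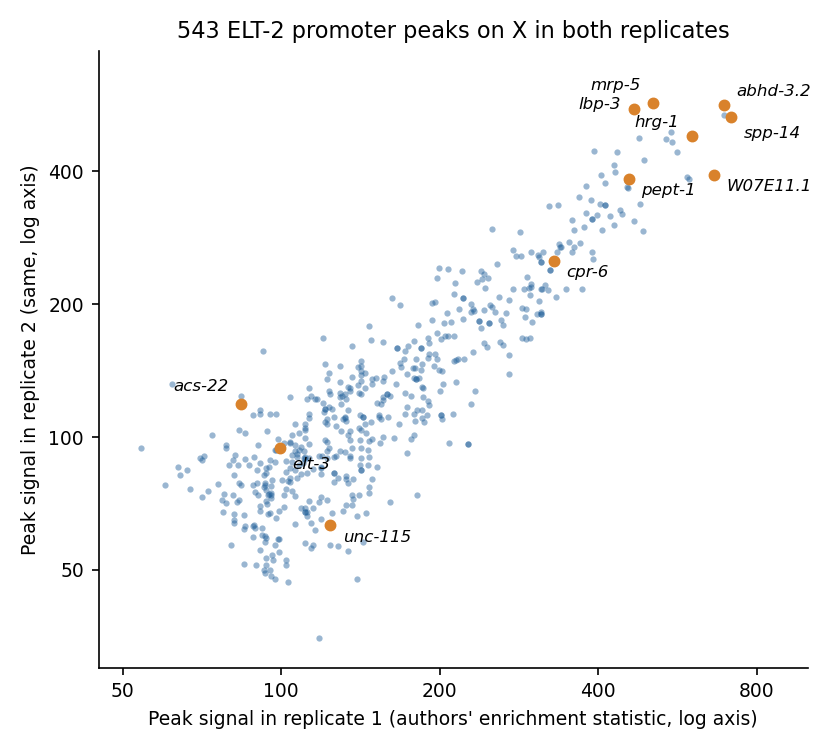
Signal of the overlapping peak in replicate 1 (horizontal) and replicate 2 (vertical), both on log axes, for each of the 543 ELT-2 promoter peaks on X. Orange points are genes named in the text. The cloud rises along the diagonal, and the peaks of abhd-3.2 (694 and 566) and spp-14 (716 and 531) stand at its upper end.

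By a stricter measure, 477 of the 543 (87.8%) overlapped one of the 5443 strongest peaks of each replicate, against 2159 of 2533 autosomal promoter peaks (85.2%). The difference of 2.61 percentage points (95% interval −0.686 to 5.48) did not pass the threshold of 0.05 (Fisher exact test, two-sided, adjusted p = 0.19). It passed with promoter windows of 500 and 100 bp (4.14 points, adjusted p = 0.041) and of 3000 and 500 bp (3.80 points, adjusted p = 0.0092, both Fisher exact tests). In 4 equal parts by signal, strongest first, the share on X was 100%, 100%, 97.8% and 53.7%, as a description, since the measure is itself a limit on rank that weak peaks are the first to miss. No difference in strength from autosomal promoter peaks was detected. Of them 265 (48.8%) exceeded the median of the thresholded list, against 1282 (50.6%) of the autosomal promoter peaks, a difference of −1.81 points (95% interval −6.42 to 2.82, Fisher exact test, two-sided, adjusted p = 0.51). The very strongest peaks of the genome were elsewhere: the first on X in a promoter ranked 50 in the thresholded list. Among the 100 strongest were 6 of the 543 (1.10%, against 1.84% of all peaks). Among the 500 strongest were 52 (9.58%, against 9.19% of all peaks), so no shortage showed at that depth. All p-values describe the peaks of 1 experiment, since neighbouring peaks and genes are not replicates, and Fisher, binomial and gene tests were adjusted together by Benjamini-Hochberg over 8 comparisons.

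The 25 strongest promoter peaks on X, with signals of 804 to 1268, stood by genes of several kinds, among them genes for heme, lipid and peptide handling. All 25 were also among the strongest in each replicate, with ranks of 50 to 359 in replicate 1 and 46 to 271 in replicate 2. The abhd-3.2 peak lay 447 bp upstream of the gene, with a signal of 1268 (694 in replicate 1 and 566 in replicate 2). That of spp-14, which codes for a saposin-like protein of the kind that acts on membranes, lay 170 bp upstream with a signal of 1244 (716 and 531). That of oac-14 lay 191 bp upstream with a signal of 1223 (693 and 537). Within the lists of the single replicates these 3 peaks ranked 55, 50 and 56 in replicate 1 and 48, 62 and 59 in replicate 2.

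A pair of heme genes followed. HRG-1 moves heme out of vesicles inside intestinal cells, and its gene had a peak in an intron, 116 bp upstream of an internal transcript start and 7124 bp downstream of the outermost one, with a signal of 1087 (602 and 482). MRP-5, an ABC transporter that exports heme from the intestine, had its peak 268 bp upstream of the gene with a signal of 1068 (509 and 572), and a weaker one 949 bp upstream with a signal of 162 (97.8 and 93.4). W07E11.1, a glutamate synthase gene by its RefSeq name, had a summit 458 bp upstream and a signal of 1047 (663 and 393). Its peak ranked 64 in replicate 1 and 174 in replicate 2, while that of mrp-5 ranked 173 and 46. Lipid genes near the top were lbp-3, with a peak 387 bp upstream and a signal of 1013 (467 and 554), and ckc-1, which codes for a choline or ethanolamine kinase of phospholipid synthesis, with a peak 156 bp upstream and a signal of 1002 (552 and 466).

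Transport and the epithelium itself were represented further down. The ammonium transporter gene amt-4 had a peak 363 bp upstream with a signal of 998 (564 and 443). The peptide transporter gene pept-1, which takes up dietary peptides at the gut surface, had a summit 96 bp upstream and a signal of 835 (457 and 385). clc-1 codes for a claudin-like junction protein, and its peak lay 62 bp upstream with a signal of 869.8 (434 and 442). bbln-1 codes for bublin, which keeps intestinal filaments in order, and its peak lay 866 bp upstream with a signal of 822 (456 and 366). The lectin genes lec-9 (a galectin, signal 962) and clec-265 (a C-type lectin, signal 846), the ETS factor gene ets-4 (signal 976), the Pumilio-family gene puf-9 (signal 915), the receptor kinase gene scd-1 (signal 832), the adaptor gene sem-5 (signal 817), the endocytosis gene epn-1 (signal 816) and spat-3 (signal 804) were also among the 25. So were F09C8.1, a lipase gene by its RefSeq name, with a signal of 952, and genes with no role given here: F18H3.4 (signal 1033), K06G5.1 (signal 999) and H28G03.2 (signal 819.9). The peak of rank 17, with a signal of 849, lay in front of R193.2 (38 bp upstream) and R193.6 (164 bp upstream) on opposite strands and was the only one of the 25 in more than 1 promoter.

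The promoter window reaches further upstream than downstream, so the rule itself places most summits in front of a gene. The summit was upstream of the nearest protein-coding 5′ end in 487 of 543 cases (89.7%), at a median distance of 197 bp in either direction. It was intergenic in 398 cases (73.3%), in an intron in 84 (15.5%) and in an exon in 61 (11.2%). Within 300 bp of the nearest 5′ end lay 342 (63.0%), fewer than the 1735 of 2533 (68.5%) on autosomes, a difference of −5.51 points (95% interval −10 to −1.15, Fisher exact test, two-sided, adjusted p = 0.027). That call was lost among the 2721 strongest peaks (−0.328 points, adjusted p = 1.0), without replicate 2 (−3.81 points, adjusted p = 0.13) and at 150 bp (−4.84 points, adjusted p = 0.078, all Fisher exact tests). The bounds of the promoter window decided some cases narrowly: the outermost promoter peaks had summits 998 and 997 bp upstream with signals of 437 and 215, and the first ones left out lay 1010 and 1022 bp upstream with signals of 470.0 and 189.7.

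**Figure D2:**
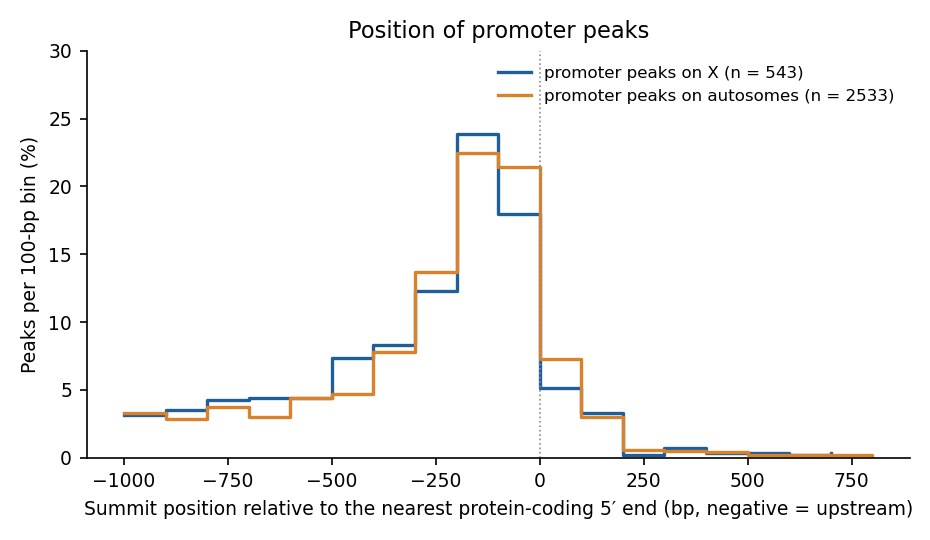
Position of the summit relative to the nearest protein-coding 5′ end, in bins of 100 bp, as the percent of 543 promoter peaks on X (blue) and of 2533 on autosomes (orange). Both groups were densest 101 to 200 bp upstream, at 23.9% on X and 22.5% on autosomes, and X had fewer in the 100 bp next to the gene (18% against 21.4%). Points beyond 200 bp downstream are summits upstream of one transcript start but nearer to another.

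A gene's first 5′ end was not always the one marked. For 89 peaks (16.4%) the promoter was that of an internal transcript start only, and 69 genes were reached solely in this way. ajm-1, which codes for a component of the apical junctions of epithelia, had 5 promoter peaks, the most of any gene on X, all inside the gene and 8637 to 22318 bp downstream of its outermost 5′ end. Their signals were 304, 267, 193, 166 and 144. The strongest, in an intron 41 bp upstream of an internal start, had 179 in replicate 1 and 113 in replicate 2. acs-22, a gene of fatty acid activation and uptake, likewise had its peak 98 bp upstream of an internal start, in an intron, with a signal of 206 (84 and 119). Of the 526 genes with a promoter peak, 19.3% of the 2731 on X, 51 had 2 or more, and besides ajm-1 only spp-2 and R07E3.4 reached 3. At spp-2 the summits lay 8 bp downstream and 193 and 854 bp upstream, with signals of 508, 180.2 and 198, and the first and second share 1 listed interval and the same replicate peaks. The summit 854 bp upstream lay in an exon of the neighbouring gene spp-6. At R07E3.4 the peaks with signals of 240.2 and 206 overlap and share the same replicate peaks.

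Promoter peaks on X were shared between genes less often than those on autosomes. Only 38 of 543 (7.00%) lay in the promoters of more than 1 gene, against 597 of 2533 (23.6%) on autosomes, a difference of −16.6 points (95% interval −19.1 to −13.6, Fisher exact test, two-sided, adjusted p = 2.6e-20). The autosomes ranged from 19.3% on II to 31.2% on III, so X lay below each of them. With a promoter window of 500 and 100 bp the difference was −10.6 points (Fisher exact test, adjusted p = 1.3e-08). The sequence itself differs in the same direction: 4.51% of promoter sequence on X lies in the windows of more than 1 gene, against 11.3% on autosomes. The part of that spacing in the result was not tested. Genes on both strands met in 34 of the 38 peaks on X (89.5%) and in 543 of the 597 on autosomes (91.0%).

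Among the 38, 37 joined 2 genes and 1 joined 3. The strongest after R193.2 and R193.6 was between gst-42, a glutathione transferase gene of the zeta class, 3 bp downstream of the summit, and D1053.2 at 212 bp, with a signal of 677 (335 and 336). The peak that joined 3 genes lay in front of the short-chain dehydrogenase gene dhs-25, with a signal of 558 (284 and 291), with D1005.10 and D1005.4 on the other strand. Others lay between nmat-1 and ucr-2.1 (signal 450.3), between glit-1 and dnj-14 (signal 397) and between gst-36 and R07B1.5 (signals 436 and 209). Such pairs were chosen here for their signal after their values were seen.

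X also held more promoter peaks than its promoter sequence accounts for. It had 543 of 3076 (17.7%) on 14.7% of promoter sequence (exact binomial test, two-sided, adjusted p = 2.6e-05). That is 140.3 promoter peaks per Mb of promoter sequence, against 92.2 on I and 133 on II, the lowest and the highest autosome. Peaks outside promoters were not part of this comparison, and the excess is not particular to promoters. X had the most peaks of any chromosome, 1188 against 1146 on the longer chromosome V. Its share of peaks in promoters, 45.7%, was below that of each autosome (56.3% on I to 62.8% on V). Counted by gene, 526 of 2731 protein-coding genes on X had a promoter peak, which is 19.3%, against 2875 of 17242 (16.7%) on autosomes, a difference of 2.59 points (95% interval 1.04 to 4.20, Fisher exact test, two-sided, adjusted p = 0.0027). Among the 2721 strongest peaks it was 1.36 points and missed the threshold (adjusted p = 0.060, Fisher exact test). A count by the nearest 5′ end gave 5.31 points (19.7% against 14.4%, Fisher exact test, adjusted p = 1.2e-11). That count did not just reassign the same promoter peaks. It held 538 genes on X, of which only 494 were among the 526, so it took in genes without a promoter peak. The effect of giving each promoter summit only to its nearest gene was thus not tested. Chromosome III, at 19%, came close to the 19.3% of X, with more genes per promoter peak (1.34 against 1.07). Along X the share of genes with a promoter peak ran from 12.3% in the second Mb to 23.2% in the fifteenth, and each Mb, the last one partial, held between 16 and 45 promoter peaks.

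**Figure D3:**
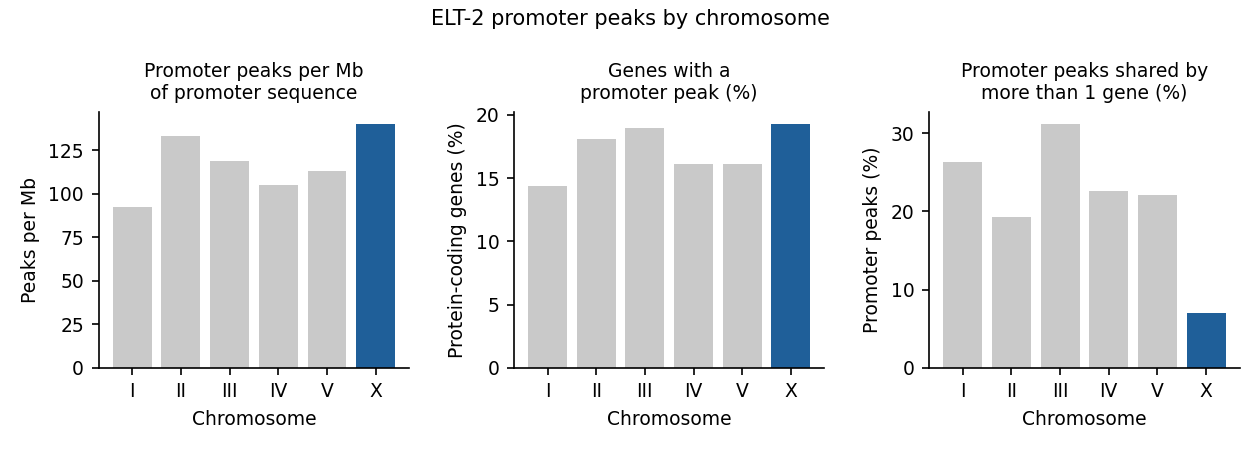
Bars give, for each chromosome (X in blue), the promoter peaks per Mb of promoter sequence, the percent of protein-coding genes with a promoter peak, and the percent of promoter peaks in the promoters of more than 1 gene. X is highest in the first panel (140.3), level with III in the second (19.3% and 19%) and lowest in the third (7.00%).

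TGATAA was concentrated at the summits. It lay within 50 bp in 242 of 543 peaks (44.6%), against 66 (12.2%) in an equally wide flank window, centred 500 bp to the right. In 215 peaks only the summit had it and in 39 only the flank (exact McNemar test, two-sided, p = 1.2e-30). For scale, 10.7% of all 101-bp windows of X promoters hold TGATAA on either strand. The share was 41.9% at autosomal promoter summits and 45.7% at the other summits on X. The differences from them were 2.64 points (95% interval −1.92 to 7.26, adjusted p = 0.36) and −1.17 points (95% interval −6.82 to 4.50, adjusted p = 0.73, both Fisher exact tests, two-sided). The former reached the threshold under some alternatives, such as the degenerate form with A or T before GATA and A or G after it (60.4% against 53.3%, Fisher exact test, adjusted p = 0.0055), and turned at 25 bp (−1.33 points, adjusted p = 0.63, Fisher exact test). Whether the share is higher on X than on autosomes thus depended on the window and motif.

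**Figure D4:**
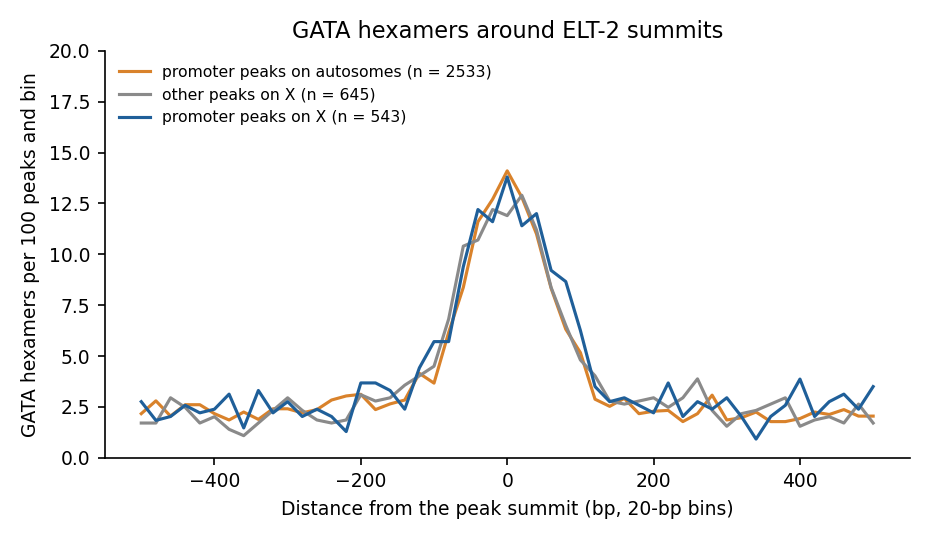
Copies of the GATA hexamer per 100 peaks, in bins of 20 bp around the summit, for promoter peaks on X (blue), promoter peaks on autosomes (orange) and other peaks on X (grey). The 3 curves are highest around the summit, where the centre bin held 13.8 copies per 100 promoter peaks on X and 14.1 on autosomes, and level off beyond about 150 bp.

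Many promoters held several copies. Within 150 bp of the summit 174 peaks had no copy, 164 had 1, 146 had 2, 49 had 3 and 10 had 4, a mean of 1.18 ± 1.04 (SD over 543 peaks). Adjacent copies lay a median of 55 bp apart, and 143 of 274 neighbouring pairs (52.2%) had the same orientation. From the strongest to the weakest of the 4 parts by signal, the mean was 1.57, 1.32, 1.07 and 0.779 copies, and the share with TGATAA within 50 bp was 53.7%, 42.6%, 43.0% and 39.0%. Of the 25 strongest peaks, 18 had at least 2 copies within 150 bp. lec-9 and epn-1 were the 2 of the 25 with none. At abhd-3.2, spp-14, lbp-3, F18H3.4, K06G5.1, clec-265 and pept-1 there were 3. In the pept-1 window printed above none is in capitals, since its 3 copies lie further than 50 bp from the summit.

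Summits were also grouped by distance from the nearest 5′ end whose promoter window held them. The hexamer lay at 52.0% of X summits up to 100 bp upstream, 47.7% of those 101 to 300 bp upstream, 38.7% of those 301 to 600 bp upstream and 33.0% of those 601 to 1000 bp upstream. At or downstream of that end it lay at 52.2% of 46 summits on X and 41.2% of 262 on autosomes. On autosomes the 4 upstream ranges had 49.2%, 35.6%, 40.9% and 48.9%, so the most distant range had the lowest share on X and nearly the highest on autosomes. These shares are descriptions, with 91 peaks in the most distant range on X, and their contrast was not tested. The base after TGATAA was G in 38.0% of 321 copies at X promoter summits (95% Wilson interval 32.9 to 43.4), 37.1% of 372 at other X summits and 47.8% of 1522 at autosomal promoter summits (45.3 to 50.3). In the flanks of the X promoter peaks it was G in 21.1% of 71 copies. The base before it was C in 35.2% of copies at X promoter summits and 15.5% in their flanks.

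A search of all 2080 hexamers, both strands counted as one, found few that set X promoter summits apart from autosomal ones. At an adjusted p under 0.05 it called 9 hexamers, or 0.433% of those tested (Fisher exact tests, two-sided, Benjamini-Hochberg over 2080). The only one more frequent on X was GAGGCA, read as TGCCTC on the other strand, in 39 of 543 windows (7.18%) against 77 of 2533 (3.04%, Fisher exact test, adjusted p = 0.0099). It was in 1.47% of the flank windows on X and in 4.19% of the other X summits. Of the peaks with it, 30.8% of 39 also had TGATAA in the window, against 45.6% of the 504 without it. The 8 less frequent ones included runs of A and T and were led by ATTTTC (13.8% against 23.3%, Fisher exact test, adjusted p = 0.0011) and AAAATA (13.6% against 21.8%, adjusted p = 0.0078). Mean GC content was 41.4% in the X summit windows and 40.2% in the autosomal ones, and its part in these calls was not tested. In the flanks 2 hexamers were called, 1 of them shared with the 9. The calls rested on the settings. No hexamer was called among the 2721 strongest peaks (145 had an unadjusted p under 0.05, Fisher exact tests) or within 25 bp of the summit (134 had). GAGGCA passed in 3 of 8 alternatives, with adjusted p-values of 0.0046 to 0.27 across them (Fisher exact tests). Without replicate 1 it was in 6.28% against 3.23% (adjusted p = 0.12) and without replicate 2 in 6.13% against 3.35% (adjusted p = 0.17, both Fisher exact tests).

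Families that act in digestion, defence and detoxification were described next, each by its members on X with a promoter peak beside the 19.3% of all genes on X. No list was tested. Detoxification enzyme families, taken by symbol, are known for modifying or conjugating foreign compounds, though a symbol does not show an enzyme's substrate. Genes of that list had a promoter peak in 11 of 22 cases (50%). Examples are gst-42, dhs-25 and the glucuronosyltransferase genes ugt-50, with a peak 38 bp upstream and a signal of 543 (285 and 257), and ugt-46, with a peak in an exon 103 bp downstream of its 5′ end and a signal of 517 (289.6 and 216). A list of lectin, lysozyme and saposin genes that also holds F-box (fbxa) and Skp1-related (skr) genes had one in 12 of 36 (33.3%). Of these, the fbxa and skr genes had one in 2 of 17 and the others in 10 of 19, a division made after the values were seen. Besides spp-14, clec-265 and spp-2, spp-5 had a signal of 782 (486 and 293) and spp-3 one of 698 (389 and 312). The saposin-like genes spp-2, spp-3, spp-5 and spp-6 are neighbours on X, and spp-6 shares its peaks with spp-2. Proteases had one in 6 of 19 (31.6%), led by cpr-6, of the cathepsin B kind, with a peak 39 bp upstream, a signal of 582 (329.8 and 251) and 2 copies of TGATAA within 50 bp.

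Transport and lipid genes followed. Nutrient and ion transporter genes had a promoter peak in 10 of 31 cases (32.3%), and in that list, which was taken by symbol and leaves out amt-4, the zinc transporter gene cdf-2 (signal 398, 206 and 191) came after hrg-1 and pept-1. ABC transporter genes had one in 4 of 16 (25%): mrp-5, mrp-3 (signal 409), pgp-3 (signal 354) and pgp-6 (signal 353). Of lipid genes 9 of 18 had one (50%), though with a median signal of 206. They include mboa-3 (signal 326), acl-1 (signal 293) and sams-1, which codes for an S-adenosylmethionine synthetase that supplies methyl groups for phosphatidylcholine. Its peak lay 109 bp upstream with a signal of 251 (123 and 127) and no TGATAA within 150 bp. A list of kinase and phosphatase genes taken by symbol, which leaves out kinase genes with other names such as scd-1, had one in 5 of 10, with pkc-2 (signal 546) and kin-29 (signal 346) the strongest in the list.

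**Figure D5:**
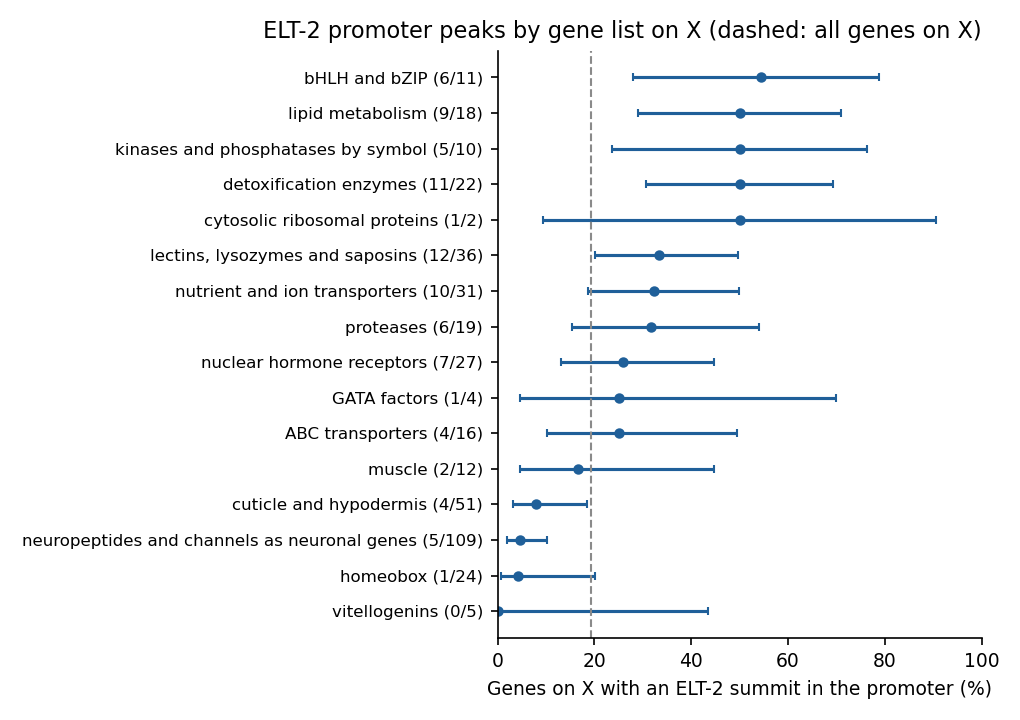
Percent of the genes of each list on X with an ELT-2 summit in the promoter, with 95% Wilson intervals that cover counting error only and the counts in the labels. The dashed line is the 19.3% of all protein-coding genes on X. The lectin list also holds fbxa and skr genes. Lists above the dashed line include bHLH and bZIP factors (54.5%) and lipid, detoxification, and kinase and phosphatase genes (each 50%). Lists below it include neuronal (4.59%) and homeobox (4.17%) genes, though the homeobox interval includes the line.

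Counts for several lists moved by over 1.5 times under other settings, which were chosen for the lists after the data were seen. With a window of 3000 and 500 bp, where 783 of the 2731 genes had a promoter peak in place of 526, nuclear hormone receptor genes with one went from 7 to 13, proteases from 6 to 10, kinases from 5 to 8, neuronal genes from 5 to 11, muscle genes from 2 to 5, homeobox genes from 1 to 2 and yolk genes from 0 to 1. With 500 and 100 bp, where 415 genes had one, kinases went to 3 and muscle genes to 1. Among the 2721 strongest peaks, where 274 genes had one, nuclear hormone receptors went to 2, bHLH and bZIP factors from 6 to 3, transporters from 10 to 5, detoxification enzymes from 11 to 7, proteases to 3, lipid genes from 9 to 4, kinases and neuronal genes to 3, cuticle genes from 4 to 1, and muscle genes and GATA factors to 0.

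Regulators of transcription were a mixed group. Of bHLH and bZIP factor genes 6 of 11 had a promoter peak (54.5%), led by the stress response genes atf-6 (signal 326) and atf-4 (signal 318), then cebp-1 (signal 298) and mxl-3 (signal 221), a gene of the fasting response. Of nuclear hormone receptor genes 7 of 27 had one (25.9%), with nhr-35 first (signal 509, 311 and 217). Of homeobox genes only ceh-37 did, 1 of 24 (4.17%, or 2 without replicate 1), with peaks of signal 423 and 207. Among 4 GATA factor genes elt-3, known for its part in the epidermis, had a peak 448 bp upstream with a signal of 203 (99.4 and 94.4) and 2 copies of TGATAA at the summit. elt-2, elt-4 and med-1 had none. The thresholded peak nearest to the 5′ end of elt-2 lay 40218 bp away, and even the relaxed lists had their nearest peaks 19799 bp away in replicate 2 and 33691 bp away in replicate 1. For elt-4 these were 14086 and 34522 bp. The strain carries a transgene with elt-2 sequence, and its part in this gap was not tested.

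Lists taken by symbol to stand for other tissues and for adult yolk production were set beside the same 19.3%. A symbol does not show where a gene acts, so genes in these lists may act in other tissues. The list of neuropeptide, receptor and channel genes for neurons had a promoter peak in 5 of 109 cases (4.59%). Its strongest was that of mec-10, which codes for a channel subunit of touch neurons, 251 bp upstream with a signal of 776 (440.3 and 326) and rank 28. The cuticle and epidermal list had one in 4 of 51 (7.84%), with none at any of the col collagen genes on X. The muscle list had one in 2 of 12 (16.7%, 95% Wilson interval 4.70 to 44.8), unc-115 (signal 194, 124 and 63.2) and lev-9 (signal 144, 63.6 and 85.5). lev-9 lost its peak without replicate 2. The yolk genes vit-1 to vit-5, which are active in the adult intestine, had none in any of the thresholded, pooled or replicate lists, and 0 of 5 allows a share of up to 43.4% (upper Wilson limit). The intervals for the muscle and yolk lists both include 19.3%. So do those for homeobox (0.739 to 20.2), nuclear hormone receptor, GATA factor, nutrient and ion transporter, ABC transporter, protease and ribosomal protein genes. The nearest thresholded peak was 2080 bp from vit-1, and it is the spp-14 peak. The peak nearest to vit-3, 3901 bp away, is the ckc-1 peak. Of the ribosomal protein genes rpl-11.2 had a peak 411 bp upstream (signal 480.4, 299 and 182) and rpl-25.1 had none.

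Some promoter peaks lay by genes that do not code for protein. Within 200 bp of a tRNA gene were 17 of 543 (3.13%), against 27 of 2533 autosomal promoter peaks (1.07%), and X holds 276 tRNA genes while the 5 autosomes together hold 336. TGATAA lay within 50 bp of 2 of those 17 summits (11.8%, 95% Wilson interval 3.29 to 34.3) and of 240 of the other 526 (45.6%, 41.4 to 49.9). The 17 were weak, with a median signal of 183 and a highest of 372, and include the peaks of lev-9, nas-10 and the weakest but one of ajm-1. The peak counted for C05G5.7, 991 bp upstream with a signal of 199.9 (111 and 90.1), lies in the primary transcript of the microRNA gene that RefSeq names let-7, which times larval development. It was chosen after its values were seen.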

How the data were processed

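Peak lists of ELT-2 ChIP-seq were used as the authors deposited them on ce11: 1 relaxed list per replicate (17177 and 18929 peaks), 1 of both pooled (16833) and the thresholded list of 5443, which the labels' notes trace to the IDR procedure. Which peak caller, IDR threshold and sets of peaks for IDR they used is not given in the sources used here. The thresholded peaks nearest to aqp-7 (signal 846, rank 210) and kin-2 (signal 151, rank 5086) had the same signal and rank in the pooled list. A place in the thresholded list thus need not mean that a peak's ranks matched between the replicates. The deposited signal of each peak is the authors' enrichment statistic and ranks peaks within a list. The authors' deposited −log10 q-value has a ceiling and was not used. No read counts were given, so depth is unknown. Lists on ce10 were not used here.

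Summits were set against Ensembl release 115 protein-coding transcripts (19973 genes on 6 chromosomes) and RefSeq WBcel235 sequence. Intervals are Wilson for shares and Newcombe for differences, both at 95% and for counting error only. Tests were exact and two-sided, adjusted by Benjamini-Hochberg over 8 comparisons, or over 2080 hexamers in that search, with a threshold of 0.05. Flank windows were centred 500 bp to the right. A replicate was left out by using the 5443 strongest peaks of the other. The replicate value of a peak is that of the strongest overlapping replicate peak. Other alternatives were promoter windows (500 and 100 bp, 3000 and 500 bp) and motif windows (25 and 100 bp). Further ones were the degenerate motif, the 2721 strongest peaks, other distances and a count of genes by the nearest 5′ end. That count took in some genes without a promoter peak.

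The peaks and the 16 gene lists were chosen with earlier results of these data known. Named genes are those at the 25 strongest promoter peaks on X, up to 4 of each list with the strongest peaks and up to 2 without one, genes with 3 or more peaks, and elt-2, elt-4, elt-3, med-1, pept-1, hrg-1, sams-1, acs-22 and vit-1 to vit-5. Not all are discussed. The programs were tested on simulated data. Shares and tests were computed with SciPy 1.17.1 and statsmodels 0.14.6 in Python 3.11.15, with pandas 2.3.3 and NumPy 2.4.6, and drawn with matplotlib 3.10.9.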

Additional observations from a re-analysis of the deposited data

How the results depend on the processing

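No conditions could be paired because there was 1 group, and only the summit and flank windows of each peak were tested as pairs. The difference in shared promoters, the excess of promoter peaks over promoter sequence and the excess of TGATAA over the flank kept their direction and their side of the threshold under every alternative run for them. The difference in TGATAA from autosomal promoters passed it with the 500 and 100 bp window (7.08 points, Fisher exact adjusted p = 0.017), the 100 bp motif window (6.23 points, adjusted p = 0.017) and the degenerate motif (7.11 points, adjusted p = 0.0055), and turned to −1.33 points at 25 bp. Leaving out peaks near tRNA genes, an alternative added after seeing the data, gave 3.53 points (Fisher exact adjusted p = 0.19). The difference from other X peaks did not pass the threshold in any setting. It turned positive with the 500 and 100 bp window (3.63 points), the 3000 and 500 bp window (0.867), the 100 bp motif window (1.38) and without replicate 1 (0.889, against −0.956 without replicate 2). The difference in strong signals turned positive with the 500 and 100 bp window (1.73 points), among the 2721 strongest (4.08) and without replicate 1 (1.79, against −3.73 without replicate 2). The share strong in both replicates passed with both other windows (4.14 and 3.80 points). Nearness to the 5′ end missed the threshold among the 2721 strongest peaks (−0.328 points), at 150 bp (−4.84) and without replicate 2 (−3.81). Without replicate 1 the difference in nearness was −6.90 points. The difference in the share of genes missed the threshold among the 2721 strongest (1.36 points). Counting by the nearest 5′ end gave 5.31 points, but that count also took in genes without a promoter peak. The count of 9 hexamers became 0 among the 2721 strongest and at 25 bp, 94 at 100 bp, 2 in the flanks, and 5 and 14 without replicates 1 and 2, of which 4 and 6 were among the 9. Without either replicate, 486 and 498 of the 526 genes with a peak remained. Peak lists without reads set no depth, so weak peaks cannot be told from their absence. The causes of these changes were not tested.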
